A study of Mus musculus with 10 samples.

Results

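The 6 genes Msln, Upk1b, Upk3b, Wt1, Gpm6a and Lrrn4, all linked with mesothelium, were followed in cells sorted from mouse liver. They were chosen by name, with earlier results of these data known. They are 6 of the 29972 genes to which the deposited transcripts could be joined. All 6 were among the 14765 genes with enough signal for a test. It was asked whether their levels differed between the sorted groups and whether they moved together from library to library or apart.

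The study measured RNA of 10 low-input libraries from cells sorted by flow cytometry. The group HpC, 4 libraries, holds hepatocyte-derived peripheral cholangiocytes from Alb-Cre+/-;Rbpjf/f;Hnf6f/f mice, aged P124, P151, P144 and P139 (postnatal days) for HpC1 to HpC4. The group pC, 3 libraries, holds peripheral cholangiocytes of Rbpjf/f;Hnf6f/f mice, which carry no Cre, aged P151, P119 and P142. The group H, 3 libraries, holds hepatocytes of Alb-Cre+/-;Rbpjf/f;Hnf6f/f mice aged P134, P139 and P139. All groups thus carry floxed Rbpj and Hnf6, in a mix of C57BL/6, FVB and CD1 backgrounds, and the albumin promoter drives Cre in HpC and H only. Perfusion and digestion of the liver gave the nonparenchymal cells from which both duct groups were sorted, whereas H was sorted after perfusion. A difference between HpC and pC is therefore also a difference between mice with and without Cre, and one between H and either duct group is also one of cell preparation. The labels used here do not name the surface markers of the sort.

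Mesothelium is the thin epithelial sheet that covers the liver and the other organs of the body cavities. It is recognised by surface proteins such as mesothelin and by transcription factors such as Wt1, which also acts in the developing liver's covering layer and in kidney and gonad. Cholangiocytes, the epithelial cells that line bile ducts, share keratins and adhesion proteins with mesothelial cells, and mesothelin can also be made by other epithelia.

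Values are TPM, a transcript abundance already corrected for length, so levels of different genes can be compared. The total is the same in every library, so the number of reads behind a value is unknown and no counting error can be given. Scaled TPM are TPM divided by 1 factor per library, from 0.668 in HpC1 to 1.61 in HpC4, 1.53 to 1.59 in pC and 0.499 to 0.585 in H. Libraries had 10232 to 14489 genes at 1 TPM or more. Both HpC1 and HpC2 stand apart. The summed level of 10 pancreatic acinar genes was 259596 scaled TPM in HpC1 against 1097 in pC3, 180 in HpC3 and 8.30 to 51.7 in the others. That of 10 squamous epithelial genes was 40785 in HpC2 and 5.08 to 818 elsewhere. Duct identity was checked with 12 cholangiocyte genes, whose sum was 1741 to 2675 in HpC, 5425 to 5594 in pC and 97.8 to 150 in H. Spp1, the osteopontin gene, made most of that gap, at 593 to 1289 in HpC and 4056 to 4410 in pC, and without it the sums were 868 to 1611 in HpC and 1183 to 1369 in pC. Of the 12 genes, 1 was called higher and 3 lower in HpC against pC, and 8 were not called (limma; over all tested genes 1.99% were called higher and 2.55% lower). The sum of 10 hepatocyte genes was 3083 to 5998 in HpC, 1164 to 2689 in pC and 82750 to 95249 in H. The ages show that the libraries of HpC, and those of pC, came from different mice, whereas H2 and H3 share an age. HpC4 has that age and genotype too, and the labels do not say which of these 3 libraries, if any, share a mouse, so p-values that rest on H may reflect a technical spread only. In such bulk samples, fewer cells of a type and less RNA per cell cannot be told apart.

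The genes with an entry in the RefSeq promoter table (GRCm38.p6) are Upk3b, Lrrn4 and Gpm6a, and a window for each is shown, because Upk3b and Lrrn4 moved together in the results and Gpm6a moved apart. Each window runs from 250 bases before to 50 after a gene start and reads 5′ to 3′ on the gene's strand, with the searched motifs in capitals. The Lrrn4 window is chr2:132880813-132881112 on the minus strand, the Upk3b window chr5:136038246-136038545 on the plus strand and the Gpm6a window chr8:54954478-54954777 on the plus strand.
Lrrn4: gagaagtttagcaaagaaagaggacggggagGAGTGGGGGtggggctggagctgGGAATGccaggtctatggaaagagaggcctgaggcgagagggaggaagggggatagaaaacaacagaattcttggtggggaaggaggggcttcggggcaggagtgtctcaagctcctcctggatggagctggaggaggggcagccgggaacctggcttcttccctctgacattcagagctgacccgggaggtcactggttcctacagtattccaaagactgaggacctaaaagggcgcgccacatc
Upk3b: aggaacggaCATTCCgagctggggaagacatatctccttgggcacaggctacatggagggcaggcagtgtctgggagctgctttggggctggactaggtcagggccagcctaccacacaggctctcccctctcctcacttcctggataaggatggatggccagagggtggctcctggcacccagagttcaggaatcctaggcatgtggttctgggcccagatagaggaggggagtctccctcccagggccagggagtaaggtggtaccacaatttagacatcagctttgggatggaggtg
Gpm6a: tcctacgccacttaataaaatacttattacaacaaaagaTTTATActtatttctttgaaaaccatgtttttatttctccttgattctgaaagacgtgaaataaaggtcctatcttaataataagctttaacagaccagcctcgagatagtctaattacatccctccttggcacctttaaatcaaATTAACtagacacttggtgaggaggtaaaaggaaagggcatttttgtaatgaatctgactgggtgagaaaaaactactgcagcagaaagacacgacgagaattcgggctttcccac

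Several motifs were searched on both strands: GGAATG, bound by TEAD factors; GNGTGGGNG, bound by Wt1; AGATAA, bound by GATA factors; GTTAAT, part of the HNF1 site; and TATAAA, the TATA box. The windows of Lrrn4 and Upk3b each held 1 GGAATG, which in Upk3b lies on the opposite strand and which 14.7% of the 32851 promoter windows in the table hold. Lrrn4 also held 1 GNGTGGGNG, found in 14.3% of all windows. The Gpm6a window held GTTAAT, found in 7.10% of all windows, and TATAAA, found in 13.6%, and no GGAATG. Both matches lie on the opposite strand, and the TATAAA match begins at base 40 of the window, far before the gene start. A second Gpm6a window, chr8:54779184-54779483, held GGAATG and GTTAAT. No window of the 3 genes held AGATAA, found in 11.2% of all windows. No matches overlapped, and they describe letters only and do not show that a factor is bound.

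Against ordinary cholangiocytes, the hepatocyte-derived ones had more Msln, Upk1b and Wt1 RNA and less Gpm6a RNA, while the differences of Upk3b and Lrrn4 did not pass the test. So 3 of the 6 genes were called higher, where 1.99% of all tested genes were, and 1 of 6 lower, where 2.55% of all tested genes were. Because the 6 were chosen with earlier results of these data known, these shares do not measure an enrichment. At an unadjusted p under 0.05, 5 of the 6 were higher and 1 lower, Upk3b and Lrrn4 included. The test was limma on log2(scaled TPM + 1) in 1 fit of all 10 libraries, at a 5% false discovery rate over the 14765 genes, and differences are on that log2 scale, which understates those of low genes. That fit took its spread from all groups, H included. With only HpC and pC in the fit, Upk1b kept its call (limma adjusted p = 0.0104). Msln, Wt1 and Gpm6a lost theirs (0.0774, 0.0505 and 0.0520). The median difference of the 6 was 0.92, against -0.01 over all tested genes. Of the calls over all genes, 43.8% were higher, and 26.1% on TPM as deposited, where the median over all genes was -0.36.

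Msln (ENSMUSG00000063011, mm10 chromosome 17, 25748613 to 25754378, minus strand) encodes mesothelin, a lipid-anchored surface protein that binds the mucin Muc16. Across HpC1 to HpC4 its scaled TPM was 14.7, 17.1, 29.1 and 32.8, across pC1 to pC3 4.65, 3.44 and 11.6, and across H1 to H3 0.043, 0 and 0.060. HpC4 and HpC3 were highest, every HpC library was above every pC library, and pC3 stood well above the other pC libraries. The mean was 23.4 ± 8.86 (SD, n = 4) in HpC and 6.55 ± 4.38 (SD, n = 3) in pC, a log2 difference of 1.77 ± 0.37 (SE; limma adjusted p = 0.0245). The call was lost without HpC3, pC1 or pC2 (limma adjusted p = 0.0734, 0.110 and 0.118) and on TPM as deposited (adjusted p = 0.157), where HpC1, at 9.82, was below pC3, at 18.3. It was also lost with only HpC and pC in the fit (limma adjusted p = 0.0774) and with no filter (0.0573).

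Upk1b (ENSMUSG00000049436, chromosome 16, 38773184 to 38800328, minus strand) encodes a tetraspanin of the uroplakin plaques that coat the bladder lining. Across HpC1 to HpC4 its scaled TPM was 3.26, 3.17, 3.78 and 5.57, across pC1 to pC3 0.660, 0.423 and 0.437, and every H library listed it at 0. The duct groups did not overlap, and the lowest HpC library was several times the highest pC library. The log2 difference of HpC and pC was 1.69 ± 0.19 (SE; limma adjusted p = 0.00122), and the call held in all 18 alternatives tried, with adjusted p up to 0.0172. Of the other uroplakins, Upk1a, Upk2, Upk3a and Upk3bl, none reached the level for testing. Their highest value in a library was 0.389 scaled TPM (Upk3bl in HpC2).

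Wt1 (ENSMUSG00000016458, chromosome 2, 105126529 to 105173616, plus strand) encodes a zinc finger transcription factor of mesothelium. Across HpC1 to HpC4 its scaled TPM was 3.40, 3.36, 5.80 and 5.41, across pC1 to pC3 1.88, 1.34 and 1.31, and across H1 to H3 0.679, 0 and 0. HpC3 and HpC4 were high, and the duct groups did not overlap on scaled TPM. On TPM as deposited they did, with HpC1 at 2.27 and pC1 at 2.87. The log2 difference of HpC and pC was 1.11 ± 0.25 (SE; limma adjusted p = 0.0345). This call was close to the threshold: it was lost in 12 of 18 alternatives, among them each of 7 single libraries left out (HpC3, HpC4, pC1, pC2, pC3, H2 and H3, limma adjusted p = 0.0913, 0.0610, 0.0760, 0.140, 0.105, 0.0521 and 0.0515), and TPM as deposited (adjusted p = 0.215).

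Wt1 was the only one of the 6 with more than 1 transcript in the tables, 8 of 9 annotated. Its best known alternative site is the end of exon 9, where a longer and a shorter form differ by 9 bases, the KTS insert, which alters how the zinc fingers bind DNA. Exon 9 starts at 105169926 and ends at 105170018 in the long form or 105170009 in the short one, and exon 10 starts at 105172223 (mm10, plus strand). The 30 bases on each side of the site are shown because the tables list both forms, with the insert in capitals.
Long form: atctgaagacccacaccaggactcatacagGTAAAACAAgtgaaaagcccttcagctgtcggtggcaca
Short form: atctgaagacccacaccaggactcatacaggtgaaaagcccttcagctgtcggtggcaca

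The 4 long-form transcripts summed to 0, 2.30, 5.75 and 2.74 deposited TPM in HpC1 to HpC4 and to 1.81, 0.858 and 1.27 in pC1 to pC3. The 2 short-form transcripts summed to 1.85, 1.03, 1.34 and 3.33 in HpC and to 0, 0.474 and 0.116 in pC. Both forms were thus listed above 0 in HpC2, HpC3, HpC4, pC2 and pC3, and only the short one in HpC1 and only the long one in pC1. The long form made up 0%, 69.2%, 81.1% and 45.1% of coding Wt1 in HpC1 to HpC4 and 100%, 64.4% and 91.6% in pC1 to pC3, so the groups overlapped. Transcripts that keep an intron took 14.0% to 30.5% of Wt1 in HpC, 33.5% to 37.0% in pC and all of the 0.397 deposited TPM in H1. The forms also differ in their ends, reads were 50 bases long, and the depth is unknown, so these shares are estimates of unknown precision and were not tested.

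Gpm6a (ENSMUSG00000031517, chromosome 8, 54954843 to 55060871, plus strand) encodes a membrane glycoprotein best known from neurons, where it promotes outgrowth of processes. Across HpC1 to HpC4 its scaled TPM was 4.26, 5.71, 6.41 and 8.18, across pC1 to pC3 20.5, 18.1 and 11.1, and across H1 to H3 0.026, 0.080 and 0. Here pC was the high group, without overlap, on scaled and on deposited values. The mean was 6.14 ± 1.63 (SD, n = 4) in HpC and 16.6 ± 4.90 (SD, n = 3) in pC, a log2 difference of -1.28 ± 0.24 (SE; limma adjusted p = 0.0143). The call was lost without pC1 or pC2 (limma adjusted p = 0.0686 and 0.0774), and without both HpC1 and HpC2 (-1.02, adjusted p = 0.0764). It was also lost with only HpC and pC in the fit (limma adjusted p = 0.0520). Other genes are annotated over its locus, and the strand setting of the quantification is unknown. Of 9 neural and Schwann cell genes, 3 were tested and none was called between HpC and pC by limma (1 lower at an unadjusted p under 0.05), and the sum of the 9 was 15.2 to 26.5 scaled TPM in HpC and 17.4 to 22.7 in pC.

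Upk3b (ENSMUSG00000042985, chromosome 5, 136038496 to 136046487, plus strand) encodes a uroplakin found in mesothelium. Across HpC1 to HpC4 its scaled TPM was 5.77, 3.995, 3.23 and 2.08, across pC1 to pC3 2.55, 0.831 and 2.24, and across H1 to H3 0, 0.058 and 0. HpC1 was highest, and HpC4 lay within the range of pC. The log2 difference of HpC and pC was 0.73 ± 0.30 (SE; limma adjusted p = 0.230).

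Lrrn4 (ENSMUSG00000043110, chromosome 2, 132868305 to 132880891, minus strand) encodes a membrane protein with leucine-rich repeats, known from neurons. Across HpC1 to HpC4 its scaled TPM was 1.74, 1.56, 0.981 and 0.585, across pC1 to pC3 0.672, 0.130 and 0.338, and across H1 to H3 0.651, 0.709 and 0.584. All 3 groups overlapped, and H, in which the other 5 genes were at or near 0 apart from Wt1 in H1, lay inside the range of the duct libraries. The log2 difference of HpC and pC was 0.67 ± 0.23 (SE; limma adjusted p = 0.146). Neither Upk3b nor Lrrn4 was called between HpC and pC in any alternative that could be run.

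**Figure D1:**
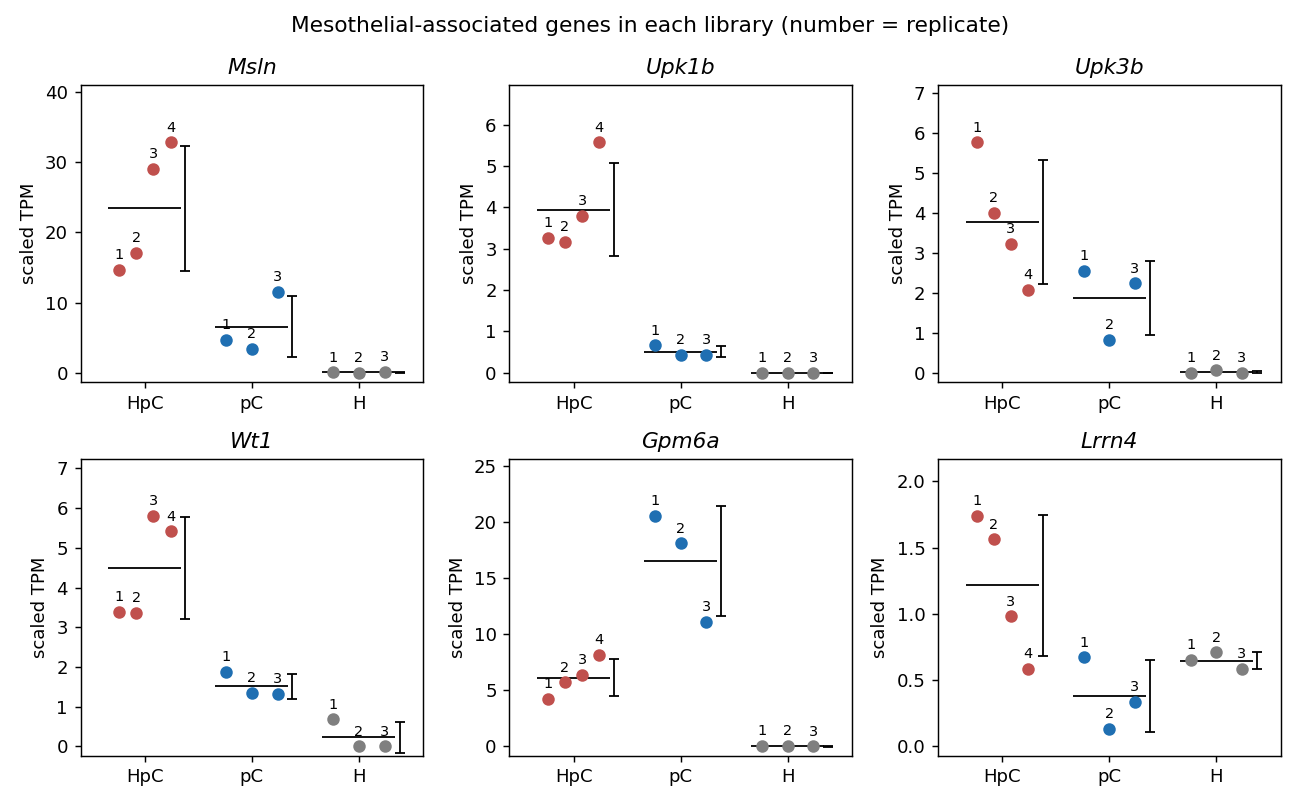
Scaled TPM (y axis, linear, a separate range for each gene) of the 6 genes in the 4 HpC, 3 pC and 3 H libraries. Points are libraries with their replicate number, lines are group means and bars are the SD. Msln and Gpm6a run from HpC1, lowest, to HpC4, highest, within HpC, and Upk3b and Lrrn4 from HpC4, lowest, to HpC1, highest.

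Against hepatocytes, 5 of the 6 genes were higher in HpC and the same 5 in pC, all but Lrrn4, and none was lower in either by limma, adjusted or at an unadjusted p under 0.05. Of all tested genes, 30.7% were higher and 29.2% lower in HpC against H, and 31.1% higher and 28.6% lower in pC against H. On TPM as deposited the calls were 7553 higher and 1519 lower for HpC against H, and 9361 higher and 1255 lower for pC against H, with medians over all genes of 0.87 and 1.20, where the scaled values gave 4528 and 4314, 4590 and 4216, with medians of 0.08 and 0.11. Both comparisons use the same 3 H libraries. HpC against H gave a log2 difference of 4.49 ± 0.37 (SE) for Msln (limma adjusted p = 3.28e-06), 2.76 ± 0.24 for Gpm6a (4.47e-06), 2.18 ± 0.25 for Wt1 (3.45e-05) and 2.17 ± 0.30 for Upk3b (0.000118). Upk1b, listed at 0 in every H library, passed with an adjusted p of 3.14e-06 by limma, and no fold is given. These 5 calls held in all 18 alternatives. Their sizes depend on the 1 TPM added before taking logs, because the genes were at or near 0 in H, apart from Wt1 in H1. With 0.1 TPM added instead, the differences were 7.40 for Msln, 5.53 for Gpm6a, 4.49 for Wt1 and 4.96 for Upk3b.

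For pC against H, the log2 difference was 4.04 ± 0.25 (SE) for Gpm6a (limma adjusted p = 5.81e-07), 2.72 ± 0.40 for Msln (0.000195), 1.44 ± 0.32 for Upk3b (0.00289) and 1.07 ± 0.27 for Wt1 (0.00589). Gpm6a thus led the list in pC, and Msln in HpC. These sizes too depend on the 1 TPM added: with 0.1 TPM they were 6.94 for Gpm6a, 5.47 for Msln, 3.94 for Upk3b and 3.00 for Wt1. Upk1b passed with a limma adjusted p of 0.0276 and lost its call without any one of pC1, pC2, pC3, H1, H2 or H3 (adjusted p = 0.0934, 0.0541, 0.0569, 0.0574, 0.0575 and 0.0561) and on TPM as deposited (0.0553). Lrrn4 differed by 0.40 ± 0.23 between HpC and H (limma adjusted p = 0.156), which passed without HpC4 (0.0476) and on TPM as deposited (0.0194). Between pC and H it differed by -0.27 ± 0.24 (limma adjusted p = 0.351), with the opposite sign on TPM as deposited (0.21, adjusted p = 0.505).

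**Figure D2:**
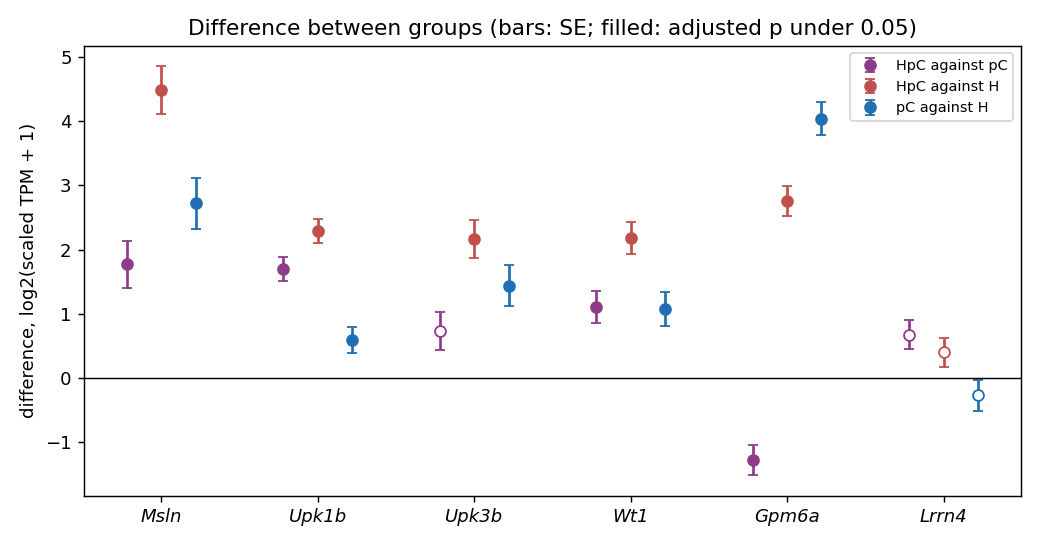
Differences of group means (y axis, log2 of scaled TPM + 1) for each gene (x axis) and the 3 comparisons, with SE bars. Filled points have a limma adjusted p under 0.05. Gpm6a alone lies below 0 in HpC against pC among the filled points. Upk1b is listed at 0 in H, and Msln, Gpm6a and Upk3b are near 0 there, as is Wt1 apart from H1. The sizes of their differences from H therefore depend on the 1 TPM added.

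Whether the genes rose together was read from ratios of 2 genes within a library, which no scaling between libraries can alter. Within HpC the genes fell into 2 sets, drawn after the values were seen and so described without a test. In the first, Msln, Upk1b, Wt1 and Gpm6a kept similar proportions. For its 6 pairs, the highest ratio among the 4 libraries was 1.38 to 1.70 times the lowest. Scaled TPM of the genes alone varied little more, 1.72 to 1.92 times for Wt1, Upk1b and Gpm6a and 2.23 times for Msln. The second set is Upk3b and Lrrn4, whose ratio was 3.32, 2.56, 3.29 and 3.55 in HpC1 to HpC4, a span of 1.39. The 8 pairs that cross the sets spanned 4.43 to 6.63.

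Msln to Wt1 shows the first set: the ratio was 4.33, 5.09, 5.01 and 6.06 in HpC1 to HpC4. Msln to Upk3b crosses the sets, with ratios of 2.55, 4.28, 8.99 and 15.8. The first ratio hardly moved while the second was lowest in HpC1 and highest in HpC4. Against Msln, 1.92% of the other tested genes had a span as small as that of Wt1 or smaller, 3.89% one as small as that of Gpm6a and 8.79% one as small as that of Upk1b, and the median gene spanned 2.87. Seen from the other genes of the set, where the median gene spanned 2.38 to 2.45, the shares ran from 4.57% to 20.3%. Against Upk1b they were 20.3% for Msln, 13.8% for Wt1 and 5.05% for Gpm6a. Against Wt1 they were 4.57% for Msln, 10.7% for Upk1b and 9.00% for Gpm6a. Against Gpm6a they were 9.68% for Msln, 4.58% for Upk1b and 10.6% for Wt1. Against Lrrn4, 0.589% of the other tested genes spanned as little as Upk3b, and the median was 3.78. Many genes therefore keep proportions as steady as those of the first set.

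The separation was then read over fewer libraries, a choice made after seeing the data. With any 1 of the 4 left out, the crossing pairs spanned 2.06 to 6.63 and the pairs of the first set 1.09 to 1.70. Between HpC1 and HpC2 alone, the crossing pairs differed by 1.08 to 1.94 times and those of the first set by 1.02 to 1.38. Between HpC3 and HpC4 alone, the crossing pairs differed by 1.45 to 2.47 times, the pairs of the first set by 1.13 to 1.58 and Upk3b to Lrrn4 by 1.08. In both of these pairs of libraries the ranges overlap. Every crossing ratio rose or fell throughout from HpC1 to HpC4, and the place of the largest step differed by pair. Wt1 to Lrrn4 was 1.96, 2.15, 5.91 and 9.26, with the largest step from HpC2 to HpC3. Upk1b to Upk3b was 0.565, 0.794, 1.17 and 2.68, with the largest step from HpC3 to HpC4. HpC1 had by far the most pancreatic transcripts and HpC2 the most squamous ones. Pancreatic transcripts also reached 1097 scaled TPM in pC3 and 180 in HpC3. Scaled Upk3b was highest in HpC1, and the part of the pancreatic transcripts in this was not tested. On deposited TPM, Upk3b was 3.85, 4.60, 4.67 and 3.35 and Lrrn4 1.16, 1.80, 1.42 and 0.943, so neither was highest in HpC1, while Msln still ranged from 9.82 in HpC1 to 52.9 in HpC4.

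In pC, with 3 libraries, only parts of this pattern were seen. Upk1b to Wt1 was nearly fixed, at 0.351, 0.315 and 0.332, and Upk1b and Wt1 each stayed within 1.60 to 1.69 times of Gpm6a. Msln left the set, with ratios to Gpm6a of 0.227, 0.190 and 1.04, a span of 5.48, because pC3 had the most Msln and the least Gpm6a. Among pC libraries, pC3 also had the highest pancreatic acinar sum, 1097 scaled TPM against 12.8 in pC1 and 8.30 in pC2. The part of those transcripts in this was not tested. Upk3b to Lrrn4 was 3.79, 6.40 and 6.61, a span of 1.74, the smallest of the pairs that include either gene.

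Between the duct groups the proportions changed most for Gpm6a. Msln to Gpm6a was 3.75 ± 0.67 (SD, n = 4) in HpC and 0.487 ± 0.482 (SD, n = 3) in pC, and Upk1b to Gpm6a was 0.648 ± 0.094 and 0.0316 ± 0.0081. The lowest HpC ratio was above the highest pC ratio for both. Gpm6a thus stood in similar proportion to Msln, Upk1b and Wt1 among HpC libraries and in another proportion in pC. Over all 7 duct libraries, the SD of the log2 difference (log2 of scaled TPM + 1) had a median of 0.79 over the 15 pairs, 1.30 over the 5 pairs with Gpm6a and 0.63 over the 10 without it. In 4 of 15 pairs it was below the SD of each gene alone. Over the HpC libraries only, this held for 6 of 15 pairs. Msln with Upk1b was not among those, with an SD of 0.330 against 0.302 for Upk1b alone. By this reading the 6 genes did not rise as 1 block.

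**Figure D3:**
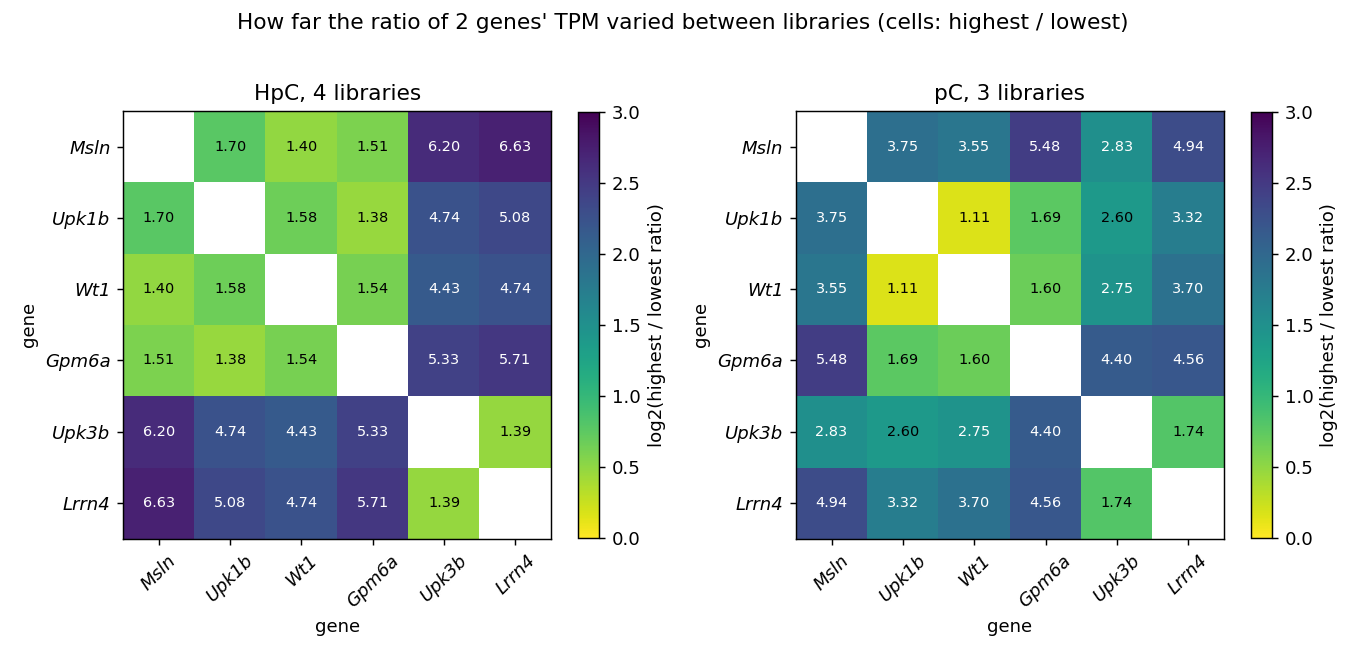
Span of the ratio of 2 genes between libraries, for the 4 HpC (left) and 3 pC libraries (right). Numbers are the highest ratio divided by the lowest, and colour is its log2. In HpC the block of Msln, Upk1b, Wt1 and Gpm6a and the pair Upk3b and Lrrn4 lie at 1.38 to 1.70, the rest at 4.43 to 6.63.

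The 6 genes were also set against duct epithelial genes in HpC. Set against Epcam, a cell adhesion protein of duct epithelium chosen after the values were seen, Msln was 14.6%, 12.6%, 16.3% and 19.7% of the Epcam level in HpC1 to HpC4, and Wt1 was 3.38%, 2.47%, 3.24% and 3.25%. Gpm6a was 4.24%, 4.21%, 3.59% and 4.92%. These percentages varied 1.36 to 1.58 times within HpC, Upk1b included, where the median tested gene varied 2.34 times against Epcam. Upk3b ranged from 1.25% in HpC4 to 5.73% in HpC1 and Lrrn4 from 0.351% to 1.73%, spans of 4.59 and 4.92.

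Against Krt19, a keratin of bile ducts and also of mesothelium, likewise chosen after the values were seen and of the 12 duct genes the closest to Msln, the spans in HpC were 1.29 for Msln, 1.44 for Wt1, 1.64 for Gpm6a, 2.12 for Upk1b, 5.97 for Upk3b and 6.39 for Lrrn4, with a median gene at 2.98. Over the list of 12 cholangiocyte genes, the median span was 2.27 for Msln, 1.92 for Upk1b, 1.85 for Wt1, 2.31 for Gpm6a, 4.22 for Upk3b and 5.02 for Lrrn4. The median over all tested genes was 2.87, 2.38, 2.45, 2.42, 3.35 and 3.78 in that order, so for Gpm6a in particular the duct genes lay near it. Over 8 tested genes of the wider mesothelial list described next it was 3.02, 2.35, 2.79, 2.56, 3.45 and 4.21 in the same order. For each gene of the first set, the median was larger over the 8 mesothelial genes than over the duct genes. For Upk3b and Lrrn4 it was smaller, 3.45 against 4.22 and 4.21 against 5.02. For Upk1b and Gpm6a the mesothelial median lay near that over all tested genes. The 8 also differed widely, from a span of 1.58 for Aldh1a2 to 14.1 for Rspo1 against Msln, and include Prg4, which was high in H. These medians therefore cannot show whether mesothelial cells were present, which was not tested.

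**Figure D4:**
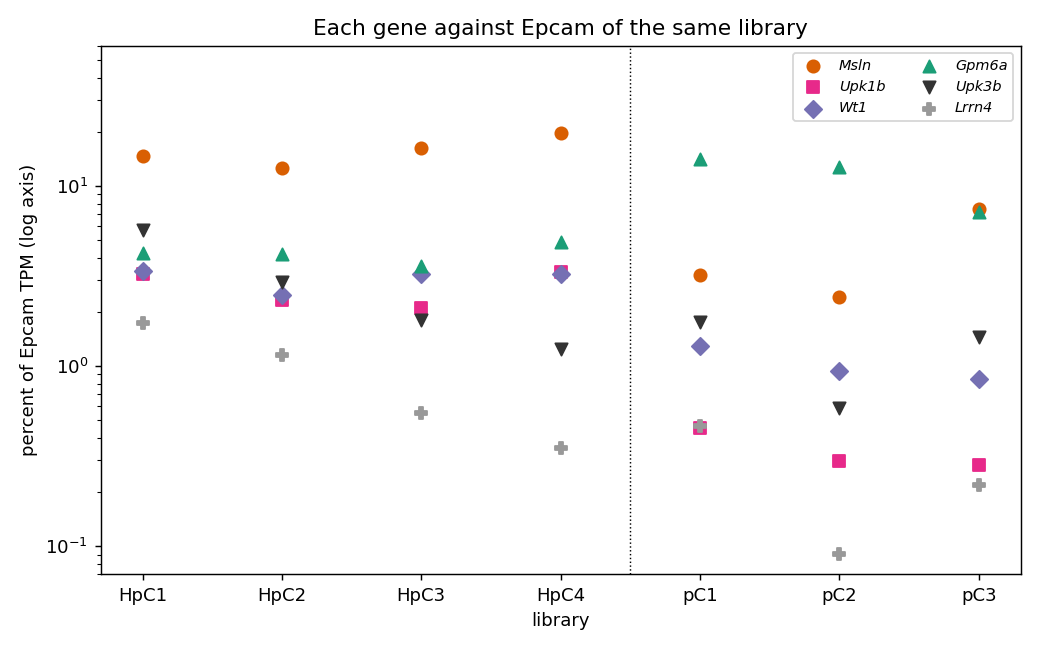
Deposited TPM of each gene as a percentage of Epcam in the same library (y axis, log scale), for the 7 duct libraries (x axis). Msln stays at 12.6% to 19.7% across HpC, while Upk3b lies between 1.25% and 5.73%. Gpm6a is at 3.59% to 4.92% in HpC and 7.17% to 14.2% in pC.

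Of 12 further genes known from mesothelium, 8 reached the level for testing. In HpC against pC, 2 of the 8 were higher, Pdpn and Nkain4, none was lower and 6 were not called by limma (4 higher and 0 lower at an unadjusted p under 0.05). Of all tested genes, 1.99% were higher and 2.55% lower. This list too was drawn up with earlier results of these data known, so these shares do not measure an enrichment. The median difference of the 8 was 0.55, against -0.01 over all tested genes. Pdpn, the surface mucin-like protein podoplanin, which also marks lymphatic vessels, had scaled TPM of 34.5, 27.1, 39.98 and 36.0 across HpC and of 10.4, 7.15 and 17.8 across pC (1.54 ± 0.26, limma adjusted p = 0.0081). Nkain4, which binds the sodium pump, had 9.04, 7.71, 5.10 and 16.1 across HpC and 3.53, 2.13 and 2.87 across pC (1.36 ± 0.30, limma adjusted p = 0.0310). The groups did not overlap for either gene on scaled TPM. On TPM as deposited they did for Pdpn, with HpC1 at 23.1 and pC3 at 28.2.

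Aldh1a2, which makes retinoic acid, followed Msln: its scaled TPM was 11.3, 15.3, 31.1 and 39.7 across HpC and 5.94, 3.90 and 15.9 across pC, with pC3 above HpC1 and HpC2, and its difference was not called (1.44 ± 0.48, limma adjusted p = 0.139). Muc16, the mucin partner of mesothelin, was low, at 0.688 to 1.54 scaled TPM in HpC and 0.099 to 1.04 in pC. Muc16 kept closer to Upk3b (span 1.81 in HpC) than to Msln (span 3.97). Aldh1a2 did the reverse, with spans of 9.77 to Upk3b and 1.58 to Msln.

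Several defining mesothelial genes were at or near 0. Calb2, calretinin, was listed at 0 in all 10 libraries. Bnc1, a zinc finger factor, was at 1.87 scaled TPM in HpC2 and at most 0.334 in the others. HpC2 is also the library with the squamous genes, whose part in this value was not tested. The factors Tbx18 and Osr1 stayed at or below 0.427. In H, 7 of the 8 tested genes were lower than in HpC, while Prg4, the lubricating proteoglycan, was higher, at 61.5 to 83.3 scaled TPM against 0.492 to 2.78 in HpC. Of all tested genes, 30.7% were lower in H than in HpC and 29.2% higher. The summed level of the 12 genes was 88.5 to 152 scaled TPM in HpC, 60.8 to 82.3 in pC and 62.0 to 83.8 in H, most of the last from Prg4. The part of mesothelial cells in these differences was not tested.

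**Figure D5:**
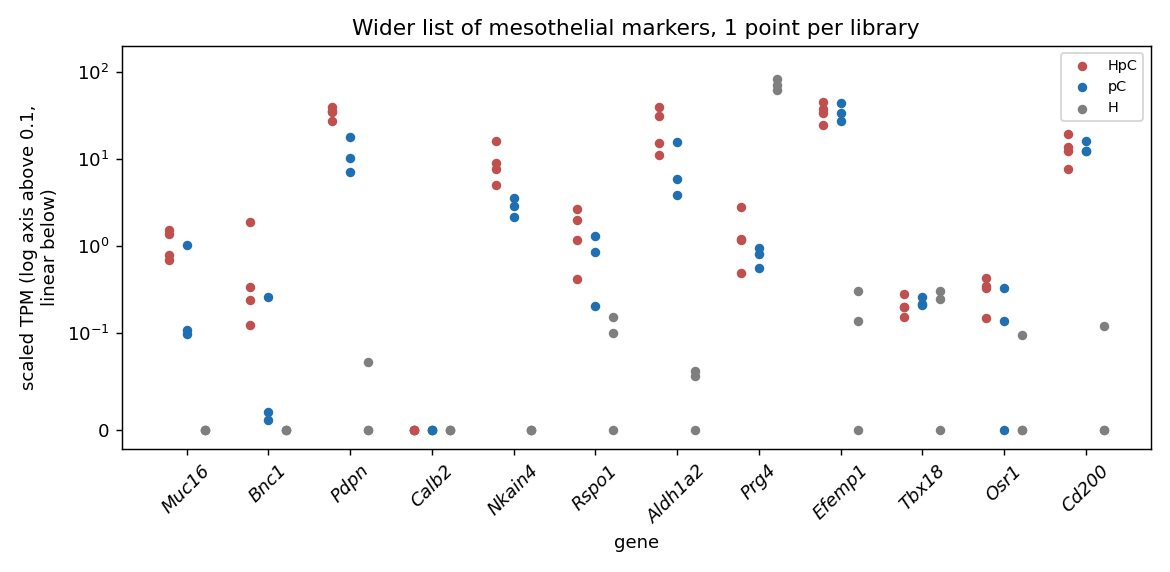
Scaled TPM (y axis, log above 0.1 and linear below) of 12 further mesothelial genes, 1 point per library, by group. Pdpn and Nkain4 lie higher in every HpC than in every pC library, Calb2 is at 0 throughout, and Prg4 is high in H only.

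Markers of other liver cells were read in the same libraries. The sum of 12 hepatic stellate genes across HpC1 to HpC4 was 121, 42.1, 79.2 and 59.7 scaled TPM, and 56.2 to 70.8 in pC, and 1 of 10 tested genes was called higher in HpC and none lower by limma, beside 1.99% and 2.55% of all tested genes. At an unadjusted p under 0.05, 5 of the 10 were higher and 1 lower, and the median difference of the list was 0.73. Col3a1, a fibrillar collagen, was the called gene, at 4.86 to 11.7 scaled TPM in HpC and 2.50 to 2.87 in pC (1.18 ± 0.24, limma adjusted p = 0.0219). The collagen genes Col1a1 (4.23 to 11.7 against 1.16 to 2.70) and Col1a2 (2.65 to 7.42 against 0.872 to 2.05) did not overlap on scaled TPM either. They missed the threshold (limma adjusted p = 0.0546 and 0.0575). On TPM as deposited Col1a2 did overlap, with HpC2 at 3.05 and pC2 at 3.20. Rgs5 went the other way, at 10.4 to 23.7 in HpC and 24.4 to 39.2 in pC (limma adjusted p = 0.0578). The sum of 10 portal fibroblast genes was 25.0 to 38.02 in HpC and 28.8 to 139.5 in pC, that of 8 endothelial genes 9.05 to 25.3 and 10.7 to 16.5, and that of 8 leukocyte genes 13.8 to 35.2 and 22.5 to 24.8, with no tested member of these 3 lists called by limma (at an unadjusted p under 0.05, 2 higher and 1 lower, all portal fibroblast genes). The sums of all 4 lists overlapped between HpC and pC, the stellate one although its collagen genes did not. The part of such cells in the differences of the 6 genes was not tested. The stellate sum was highest in HpC1, as were Upk3b and Lrrn4, but so were the endothelial, hepatocyte and pancreatic acinar sums. The part of any of these cells in the levels of Upk3b and Lrrn4 was not tested.

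The tested genes most like each of the 6 over the 7 duct libraries, by the smallest SD of the log2 difference, differed by set. Among genes whose log2 level averaged 2 or more and varied with an SD of 0.5 or more, the closest to Msln were Gm20400 (SD 0.105), Aldh1a2 (0.273) and Chst15 (0.286). For Upk1b they were the carriers Slc22a4 (0.182) and Slco2a1 (0.248) and Arl4d (0.263), and for Wt1 the kinase Nuak1 (0.142), the hydrolase Faah (0.178) and Gipc2 (0.194). Gpm6a was closest to Cav2, a caveolin (0.187), Stard8 (0.195) and Cdk19 (0.209).

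Upk3b and Lrrn4 shared Gars, glycyl-tRNA synthetase, among their 3 closest genes (0.229 and 0.0839). The others were Wars, tryptophanyl-tRNA synthetase (0.177), and Ndufa1, a subunit of respiratory complex I (0.204), for Upk3b. For Lrrn4 they were the endoplasmic reticulum chaperone Hsp90b1 (0.132) and the proteasome subunit Psmd6 (0.162). Upk3b and Lrrn4 were too low to be candidates themselves. Among all tested genes, Lrrn4 was the fifth closest to Upk3b, and Upk3b was in place 49 among those closest to Lrrn4 (SD 0.208). The 1 TPM added before taking logs narrows the differences of low genes: the plain ratio of Lrrn4 to Gars varied 4.96 times over the 7 libraries, and that of Upk3b to Gars 2.57 times. Wars had scaled TPM of 34.0, 20.97, 19.7 and 10.7 in the 4 HpC libraries and Hsp90b1 of 730, 552, 513 and 376, both highest in HpC1 and lowest in HpC4. Of all tested genes, 4.99% had this same order of the 4 HpC libraries on scaled TPM, and 6.15% the opposite order of Msln and Gpm6a.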

How the data were processed

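The authors deposited 1 table per library with TPM, a normalized abundance, for 85276 Ensembl transcripts. Per the submitters' processing notes, kallisto and DESeq were used and the build was mm10; versions and the role of DESeq are not given in the sources used here. No read numbers are held, so no count test was possible, and limma, the planned replacement for a count test, was used. Transcripts were joined to genes through GENCODE M21; 81927 matched and 3349, with 4.22% to 9.06% of a library's TPM, did not. Genes at 1 TPM or more in at least 3 libraries were tested. TPM was scaled by a trimmed mean of log ratios (30% of ratios and 5% of levels trimmed at each end). The deposited values were turned into log2(scaled TPM + 1) and compared with limma 3.58.1 (R 4.3.3, mean-dependent prior variance, Benjamini-Hochberg adjustment), in scripts tested on simulated data. Tables and figures used Python 3.11.15, pandas 2.3.3 and matplotlib 3.10.9.

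The 6 genes and all lists were chosen with earlier results of these data known. Named genes are the 6, up to 6 per list (past the threshold by smallest p, or defining markers near 0) and the 3 most alike per gene; Aldh1a2, Muc16, Prg4, Epcam, Krt19, Upk3bl, Spp1, Col1a1, Col1a2 and Rgs5 were singled out after their values were seen. Alternatives were another pseudocount (0.1), no filter, deposited TPM, median-of-ratios scaling, coding transcripts only, only the groups compared, the replicate block and libraries left out.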

Additional observations from a re-analysis of the deposited data

Results flagged for a closer look

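In 4 of 52 sets of 4 HpC values, 1 library lay far from the others by Dixon's ratio (the gap to the nearest value over the whole range, above its critical value). Chance flags about 1 in 20 such sets. HpC2 was low for Wt1 as a percentage of Epcam (ratio 0.852) and high for Bnc1 (0.881) and the summed squamous epithelial genes (0.984). HpC1 was high for the summed pancreatic acinar genes (0.999).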

How the results depend on the processing

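The number of genes called between HpC and pC, 671, was 271 to 794 with 1 library left out (lowest without pC2) and 373 with only those groups in the fit. That for HpC against H, 8842, was 7754 to 8981 with 1 library left out, and that for pC against H, 8806, was 7704 to 9238. With the replicate block the counts were 573, 8184 and 8697. Same-numbered libraries of different groups showed no clear shared deviation (r of -0.05 to 0.08 over 9 pairs). Differently numbered ones ranged from -0.18 to 0.17. With so few libraries this cannot decide whether the numbers pair them. The block took the call of Wt1 between HpC and pC (adjusted p = 0.0912, limma). Lrrn4 between pC and H turned from -0.27 to 0.21 on TPM as deposited. With only the groups compared, Msln, Wt1 and Gpm6a lost their calls between HpC and pC (limma adjusted p = 0.0774, 0.0505 and 0.0520). With no filter Msln and Wt1 lost theirs (0.0573 and 0.0751), and with a pseudocount of 0.1 Wt1 did (0.303). Without HpC1 and HpC2 together Lrrn4 failed the filter. The median SD over pairs of the 6 genes, 0.79, was 1.04 with a pseudocount of 0.1, 0.89 on TPM as deposited and 0.89 without HpC1 and HpC2. The cause of these changes was not tested. Depth is unknown, so values near 0 may be failed estimates.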

Other observations

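Family relatives of the 6 genes were read as well. Lrrn1, of the same family as Lrrn4, was lower in HpC, with scaled TPM of 3.06, 0.693, 0.959 and 1.51 across HpC1 to HpC4, than in pC, with 6.99, 9.37 and 7.22 (log2 difference -1.87 ± 0.27 SE, limma adjusted p = 0.0044), and was listed at 0 in H. Lrrn3 was below 0.66 in the duct libraries and at 2.30, 1.63 and 1.68 in H1 to H3. Gpm6b, a paralog of Gpm6a, stood at 3.44, 1.33, 3.19 and 3.27 in HpC and at 5.01, 5.74 and 4.08 in pC and was not called (-0.68 ± 0.24, limma adjusted p = 0.174). Mslnl, a paralog of Msln, stayed at or below 0.473. Of 7 such genes, 3 were tested, 1 was lower in HpC than in pC and none higher by limma (2 and 0 at an unadjusted p under 0.05), with a median difference of -0.68. Over all tested genes, 2.55% were lower and 1.99% higher, with a median of -0.01.

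The gene closest to Msln, Gm20400, had scaled TPM of 81.5, 88.9, 155 and 185 across HpC1 to HpC4 and of 29.6, 26.3 and 61.6 across the pC libraries (1.69 log2, limma adjusted p = 0.0232). Its SD against Msln was 0.105, and that of the next gene, Aldh1a2, 0.273.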
